A study of Rattus norvegicus with 12 samples.

Results

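Small circles of 250 to under 330 bp lie in the length profile of skin circular DNA between the peak of circles about as long as the DNA of 1 nucleosome and the larger peak of circles about as long as the DNA of a pair of nucleosomes. The set comprised every listed extrachromosomal circular DNA (eccDNA) that was annotated as intronic or intergenic and whose end minus start came to 250 to under 330 bp. It held 12415 of the 228353 listed eccDNA (5.44%), 4785 in introns and 7630 between genes. Of the members, 53.8% were 310 bp or longer, on the rise towards the longer peak. All were chosen by their listed length, with limits set on the pooled length profile of these libraries, so lengths inside the set are described without a test. At the lower edge there were 162 circles at 250 bp and 164 at the length 1 bp shorter, and at the upper edge 352 at 330 bp and 418 at the length 1 bp shorter.

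The circles came from Circle-seq of the back skin of wild-type SD rats, in which linear DNA is digested and the circles that survive are sequenced. Control skin was untreated, 5 Gy x2 skin had received 2 weekly electron beam fractions of 5 Gy, and 5 Gy x4 skin had received 4 such fractions, with irradiated skin taken on day 7 after the last fraction. Each group had 4 libraries, made with a transposase kit from 50 ng of column-enriched, exonuclease-treated DNA. Nothing in the labels ties single libraries to single animals, so p-values measure the spread between libraries, which may be technical. The sampling time of control skin is also not in the labels, and total dose and time under treatment cannot be told apart.

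Small eccDNA are found in many healthy tissues and are thought to arise when short chromosomal fragments are joined end to end. Their lengths tend to cluster near those of DNA wrapped on nucleosomes, with a fine spacing near the turn of the double helix. A circle is recognised in short-read data by split reads, which cross the junction, and by discordant read pairs, whose mates point outward.

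The deposited tables give supporting reads (split reads plus discordant pairs) per circle, and presence of a circle in a library here means at least 1 supporting read there. Supporting reads over all circles ran from 35525 to 404815 per library, and the total sequencing depth is unknown. They are amplified reads without molecular identifiers. Over the 12 libraries the set made 13750 calls, a call being 1 circle present in 1 library. A member had a median of 5 supporting reads, with quartiles of 2 and 12 and a maximum of 947. The members occupied 12319 loci that did not overlap, and 190 of them overlapped another member.

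Irradiated libraries held more of these circles on average, but the groups overlapped. Control replicates 1 to 4 held 527, 1019, 859 and 468 of them. The 5 Gy x2 replicates held 1077, 1560, 1288 and 400, and the 5 Gy x4 replicates 1166, 2098, 2388 and 900. Replicate 4 of 5 Gy x2 lay below every control library, and replicate 4 of 5 Gy x4 lay inside the control range. On average 5 Gy x4 libraries held 2.28 times as many as control libraries (two-sided exact permutation p = 0.0571, adjusted p = 0.2 over 21 tests, n = 4). For 5 Gy x2 against control the ratio of means was 1.51 (exact permutation p = 0.257, adjusted p = 0.45), and for 5 Gy x4 against 5 Gy x2 it was likewise 1.51 (exact p = 0.257, adjusted p = 0.45). With 4 libraries a group, no exact p can go below 0.0286.

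The direction of this difference depended on the scale. Per 10000 supporting reads of the library, the ratio to control was 0.962 at 5 Gy x2 (exact p = 0.914, n = 4) and 0.896 at 5 Gy x4 (exact p = 0.8). Drawn down to 35525 supporting reads in every library, the ratios were 1.2 and 1.44 (exact p for 5 Gy x4 = 0.143). Divided by the mean depth over the mitochondrial genome, another circle of the same cells, they were 0.289 and 0.356 (exact p = 0.0857 each).

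**Figure D1:**
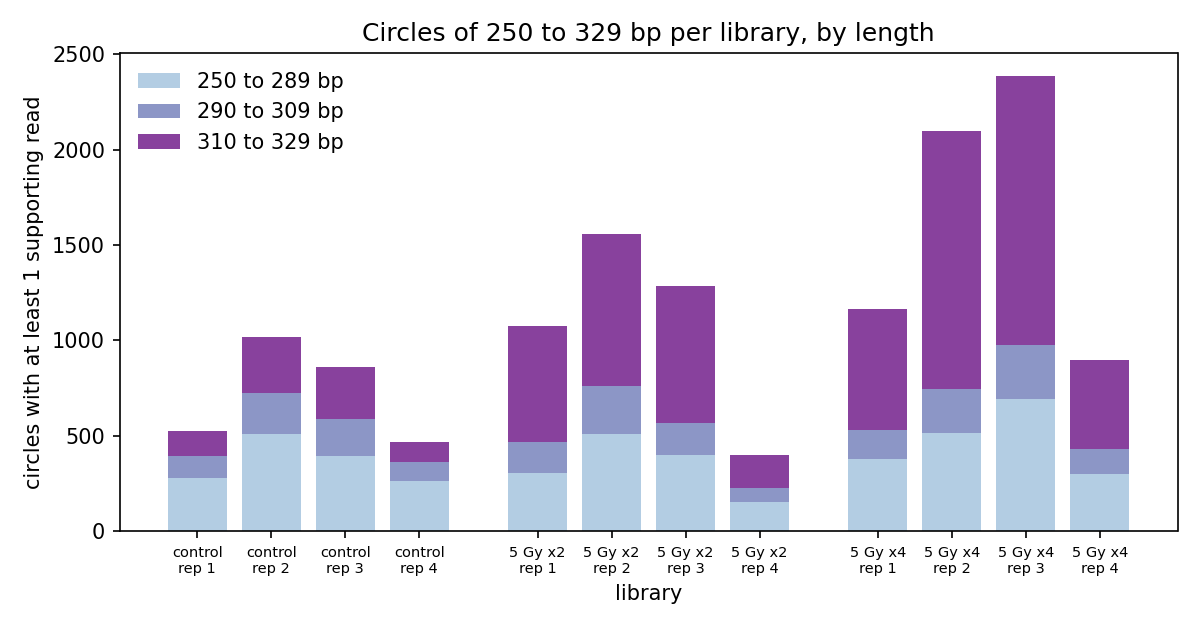
Number of intronic and intergenic circles of 250 to under 330 bp with at least 1 supporting read in each of the 12 libraries (vertical axis), stacked by listed length. The part under 290 bp runs from 262 to 509 circles in control libraries and from 301 to 692 in 5 Gy x4 libraries, and the part from 310 bp up runs from 104 to 294 circles in control libraries and from 470 to 1412 in 5 Gy x4 libraries.

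As a share of all eccDNA of a library, circles of this length range were fewer in irradiated libraries. They were 11%, 10.8%, 8.27% and 13% of the eccDNA of control replicates 1 to 4. The 5 Gy x2 replicates had 5.67%, 5.42%, 4.69% and 6.32%, and the 5 Gy x4 replicates 5.28%, 4.69%, 5.17% and 4.47%. Every control library lay above every irradiated library. Because the limits came from the length profile, this share is a description and was not tested. The neighbouring classes moved by other amounts, with mean numbers in 5 Gy x4 of 2.99-fold the control mean at 150 to under 250 bp and 8.84-fold at 330 to under 420 bp.

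The 2 ends of the length range differed. In number, circles under 310 bp came to 396, 725, 588 and 364 in control replicates 1 to 4, to 469, 760, 565 and 226 in 5 Gy x2 and to 531, 746, 976 and 430 in 5 Gy x4. Those values overlapped throughout, with means of 0.974-fold (5 Gy x2) and 1.29-fold (5 Gy x4) the control mean. Circles from 310 bp up numbered 131, 294, 271 and 104 in control, 608, 800, 723 and 174 in 5 Gy x2, and 635, 1352, 1412 and 470 in 5 Gy x4. Their means were 2.88-fold and 4.84-fold the control mean, and every 5 Gy x4 library lay above every control library. These longer circles made up 26.9% ± 4.14 of the members of control libraries (SD, n = 4). In 5 Gy x2 libraries they made up 51.8% ± 6.04 and in 5 Gy x4 libraries 57.6% ± 5.41. Control libraries reached at most 31.5%, and irradiated libraries began at 43.5%.

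**Figure D2:**
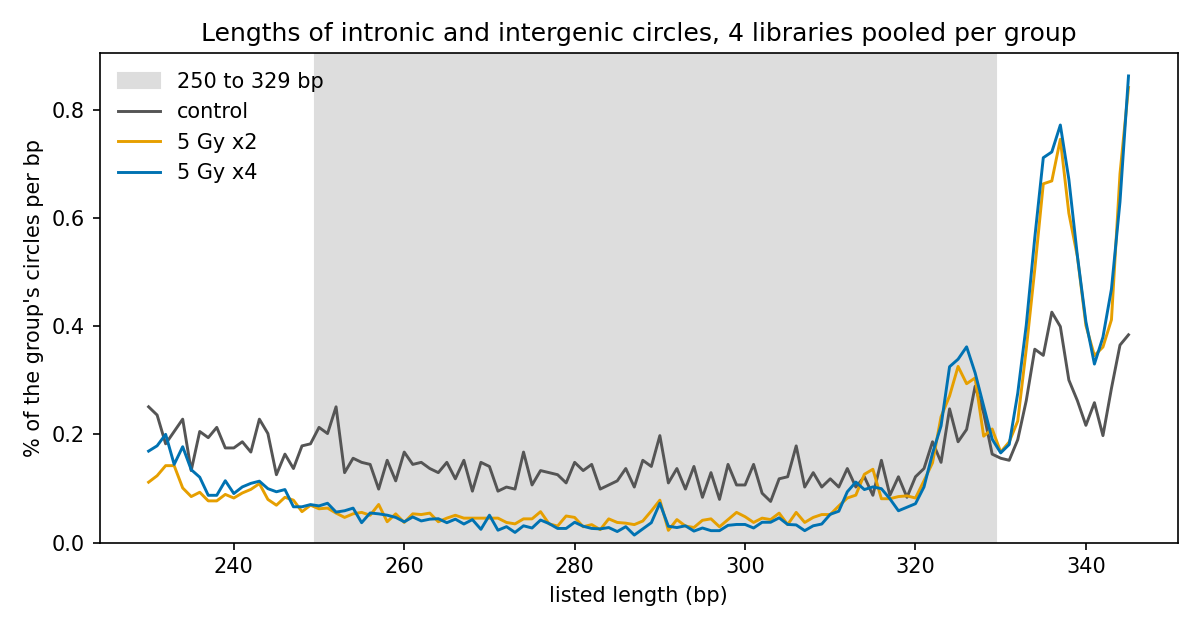
Share of each group's intronic and intergenic circles (vertical axis, percent per bp, 4 libraries pooled) at each listed length from 230 bp to beyond the upper limit, with the members' range shaded. Inside the shaded range the control line falls from 0.213% at 250 bp to 0.107% at 300 bp, where the irradiated lines run lower, and all 3 lines rise to a mode within 1 bp of 326 bp.

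Within the range, the pooled mode of each group lay within 1 bp of 326 bp, with 76 calls at the control mode, 245 at the 5 Gy x2 mode and 443 at the 5 Gy x4 mode. Calls of 320 to under 330 bp outnumbered calls of 280 to under 290 bp by a factor of 1.51 in control. The factor was 5.71 after 2 fractions and 8.57 after 4. Over all members the mode was 326 bp (701 circles), 11 bp above a smaller peak at 315 bp (239 circles), with 148 circles at the low point between them. A spacing of 11 bp is close to a turn of the double helix. The strength of that spacing was measured as a squared resultant length times 100, where 0 means evenly spread lengths and small negative values can occur. It was -0.031, -0.088, 0.222 and -0.013 in control replicates 1 to 4, -0.044, 0.299, 0.503 and 0.563 in 5 Gy x2, and 0.740, 1.96, 1.44 and 0.358 in 5 Gy x4. All 5 Gy x4 libraries lay above all control libraries, while 5 Gy x2 overlapped control. The size rested on weighting each circle for the smooth slope of its library's lengths. Without weights the differences from control were 1.57 (5 Gy x2) and 3.37 (5 Gy x4), in place of 0.308 and 1.10, and neither irradiated group overlapped control. With only calls that had at least 1 split read, the weighted difference in 5 Gy x4 was 0.960. Among circles found in 1 library it was 0.870. In both of these settings 5 Gy x4 overlapped control. When spacings of 6 to 16 bp were scanned, the strongest was 15.7 bp in control, 11.8 bp at 5 Gy x2 and 11.3 bp at 5 Gy x4. The direction of both irradiated groups against control turned at a spacing of 10 bp (-0.144 and -0.0183). The 11 bp spacing was not particular to the members, and its mean strength was higher in both neighbouring classes. At 150 to under 250 bp the means were 0.3901 (control), 1.235 (5 Gy x2) and 2.13 (5 Gy x4). At 330 to under 420 bp they were 1.196, 1.829 and 1.843, against 0.0226, 0.3302 and 1.124 for the members. The members were higher in 1 of 12 libraries against each class. These values are given without a test.

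On average, gene-dense regions held a smaller share of the members in irradiated than in control libraries, a difference that did not pass an adjusted p of 0.05. Gene-dense regions were the 72 of 291 windows of 10 Mb with at least 79 genes named in the annotation of the circles. These windows held 33.6%, 34.4%, 34.9% and 38.2% of the members in control replicates 1 to 4. The values were 31.2%, 32.1%, 30.9% and 33.0% in 5 Gy x2 and 29.4%, 29.2%, 30.9% and 27.4% in 5 Gy x4. The control libraries lay above all 8 irradiated libraries. The 5 Gy x2 libraries (at least 30.90%) lay only narrowly above the 5 Gy x4 libraries (at most 30.86%). With at least 2 supporting reads the doses overlapped (-2.72 percentage points for 5 Gy x4 against 5 Gy x2, exact p = 0.0857). The differences in means were -3.50 percentage points (5 Gy x2 against control), -6.07 (5 Gy x4 against control) and -2.57 (5 Gy x4 against 5 Gy x2), each with an exact p of 0.0286 and an adjusted p of 0.120. Within 250 to under 310 bp they were -1.99 (exact p = 0.143), -7.63 and -5.64 (exact p = 0.0286 each). Among circles found in 1 library they were -2.94 (exact p = 0.0571), -4.46 (exact p = 0.0286) and -1.52 (exact p = 0.286). The comparisons with control share its libraries, and without control replicate 4 the difference in 5 Gy x2 was -2.52. In the neighbouring classes, not tested between groups, mean gene-dense shares were also lower in irradiated libraries. They were 31.5% (control), 27.3% (5 Gy x2) and 25.4% (5 Gy x4) at 150 to under 250 bp. At 330 to under 420 bp they were 28.3%, 25.1% and 25.2%.

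Chromosome 12, a short and gene-rich chromosome, held 5.50%, 3.83%, 5.24% and 4.49% of the members in control replicates 1 to 4. It held 2.60%, 3.40%, 2.48% and 4.50% in 5 Gy x2 and 1.54%, 2.19%, 2.55% and 2.89% in 5 Gy x4. All 5 Gy x4 libraries lay below all control libraries (-2.47 percentage points, exact p = 0.0286, adjusted p = 0.120). Replicate 4 of 5 Gy x2 lay inside the control range (-1.52, exact p = 0.0857, adjusted p = 0.225). Within 250 to under 310 bp the differences were -1.77 in 5 Gy x4 (exact p = 0.0286) and -0.852 in 5 Gy x2 (exact p = 0.257). Mean chromosome 12 shares were also lower in irradiated libraries in the neighbouring classes, which were not tested between groups. They were 3.21% (control), 2.18% (5 Gy x2) and 1.66% (5 Gy x4) at 150 to under 250 bp. At 330 to under 420 bp they were 2.67%, 1.51% and 1.65%. Over all 22 chromosomes, 0 passed an adjusted p of 0.05 in any comparison (0%), the lowest adjusted exact p being 0.629. At an unadjusted exact p of 0.0286 there was 1 chromosome (4.55%) in 5 Gy x2, chromosome 2, whose share was 7.69% ± 0.463 in control and 9.17% ± 0.383 in 5 Gy x2 (SD, n = 4). There was 1 (4.55%) in 5 Gy x4, which was chromosome 12, and 0 between the doses.

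Circles were too sparse in windows of 10 Mb for most of the genome to be tested. The low-count filter left 3 of 290 windows, and edgeR's quasi-likelihood test called 0 of them (0%) in each comparison, also at an unadjusted p under 0.05. DESeq2 called 0 of 290, with 11, 23 and 5 at an unadjusted p under 0.05 in 5 Gy x2, in 5 Gy x4 and between the doses. Without the filter, edgeR called 2 of 290 windows in 5 Gy x2 (0.69%, 1 higher and 1 lower). It called 3 in 5 Gy x4 (1.03%, all lower) and 0 between the doses. In that fit 17, 34 and 9 windows had an unadjusted p under 0.05 in 5 Gy x2, in 5 Gy x4 and between the doses. The window chr12:40000001-50000000 held 9, 11, 13 and 10 members in control replicates 1 to 4, 6, 9, 4 and 3 in 5 Gy x2, and 9, 8, 13 and 6 in 5 Gy x4. Its mean count was 10.75 in control, 5.5 at 5 Gy x2 and 9 at 5 Gy x4, and its mean share was 1.61% in control, 0.549% at 5 Gy x2 and 0.591% at 5 Gy x4. Its share fell by 1.5 on the log2 scale in 5 Gy x2 (SE 0.34, adjusted p = 0.00912 of the unfiltered edgeR fit) and by 1.37 in 5 Gy x4 (SE 0.31, adjusted p = 0.00680). In the filtered fit of 3 windows its log2 differences were -0.63 and -0.23, with adjusted p values of 0.240 and 0.685. That fit scaled each library by its members in those 3 windows alone. Its differences are therefore not on the scale of the shares of all members. The other windows called lower in 5 Gy x4 were chr3:160000001-170000000 (fell by 1.28, SE 0.32) and chr8:120000001-130000000 (fell by 1.32, SE 0.34), both at an adjusted p of 0.0196. The window called higher in 5 Gy x2, chr6:60000001-70000000, held 5, 4, 6 and 2 members there and 0 in every control library. These calls rested on few libraries. In 5 Gy x2, 0 windows were called without control replicate 3, control replicate 4 or 5 Gy x2 replicate 3, and 1 without control replicate 2 or 5 Gy x2 replicate 1. In 5 Gy x4, 0 were called without 5 Gy x4 replicate 2, and 1 without control replicate 2 or 5 Gy x4 replicate 3.

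The intronic share of the members was nearly constant. It averaged 39.0% in control, 38.7% at 5 Gy x2 and 38.3% at 5 Gy x4, with all 12 libraries between 37.0% and 40.2%. The differences of -0.283 (5 Gy x2), -0.671 (5 Gy x4) and -0.389 percentage points (between the doses) were within the spread between libraries (exact p = 0.686, 0.429 and 0.571).

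Set against their neighbours in the same libraries, the members lay more often in introns and in gene-dense windows. Across the 12 libraries, 38.7% ± 1.07 of the members were intronic (SD, n = 12), against 35.4% ± 1.92 of intronic and intergenic circles of 150 to under 250 bp and 34.6% ± 0.967 of those of 330 to under 420 bp. The share was higher than in the shorter class in 10 of 12 libraries (3.26 percentage points, adjusted exact p = 0.00228) and than in the longer class in 12 of 12 (4.05 points, adjusted exact p = 0.000977). Gene-dense windows held 32.1% ± 2.94 of the members, 28.0% ± 3.58 of the shorter class and 26.2% ± 2.87 of the longer class, and the members were higher in 12 of 12 libraries against both (4.07 and 5.93 points, adjusted exact p = 0.000977 each). Chromosome 12 held 3.43% of the members, 2.35% of the shorter and 1.94% of the longer class, higher in 11 of 12 libraries in each case (adjusted exact p = 0.00152 and 0.00186). These p-values came from all sign flips of the within-library differences and were adjusted over 14 tests.

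The gene-dense gap to the longer class was seen in each group. It averaged 7.00 percentage points in control (3.43 to 10.1 over 4 libraries), 6.72 in 5 Gy x2 (5.76 to 7.28) and 4.05 in 5 Gy x4 (2.24 to 5.39). The gap to the shorter class averaged 3.80 points in control, 4.54 at 5 Gy x2 and 3.86 at 5 Gy x4. Whether the gaps differed between groups was not tested.

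**Figure D3:**
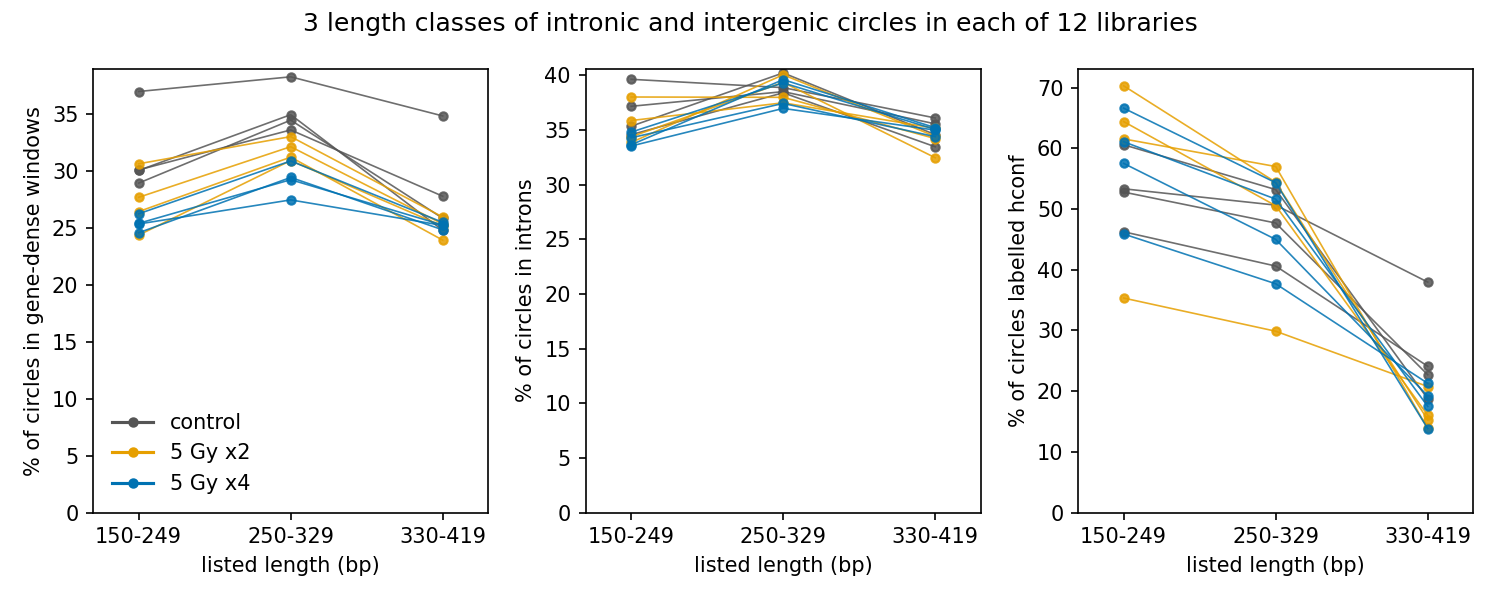
Share of circles in gene-dense windows (left), in introns (middle) and with the label hconf (right), in percent, for the members (middle of each panel) and the shorter and longer neighbouring classes, with 1 line per library coloured by group. The left panel peaks at the members in all 12 libraries, and the right panel falls from the shortest to the longest class in all 12.

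Support per circle lay between that of the neighbouring classes. The mean of log2 supporting reads was 2.58 for the members, 2.90 at 150 to under 250 bp (members lower in 11 of 12 libraries, adjusted exact p = 0.00439) and 2.14 at 330 to under 420 bp (members higher in 12 of 12, adjusted exact p = 0.000977). The deposited annotation labels each circle hconf, conf or lconf without defining the terms. Of the members, 5341 (43.0%) were hconf, 2631 (21.2%) conf and 4443 (35.8%) lconf. Per library, 47.7% ± 8.05 of the members present were hconf (SD, n = 12), against 56.3% ± 10.04 of the shorter class (lower in 12 of 12) and 20.1% ± 6.54 of the longer class (higher in 12 of 12, adjusted exact p = 0.000977 for both).

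Neither support nor label separated the groups. Median supporting reads of the members were 2, 6, 11 and 14.5 in control replicates 1 to 4, 19, 2, 9 and 6 in 5 Gy x2, and 6, 5, 3 and 15 in 5 Gy x4. The hconf shares were 40.6%, 47.7%, 53.2% and 50.6% in control, 54.4%, 29.9%, 50.5% and 57.0% in 5 Gy x2, and 51.6%, 45.0%, 37.7% and 54.3% in 5 Gy x4. The groups overlapped in both, with exact p values of 0.686 to 0.857 for mean log2 reads and 0.857 to 0.971 for the hconf share over the 3 comparisons (n = 4).

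Most support was from split reads, which made up 83.9% of the members' supporting reads. Of the 13750 member calls, 830 (6.04%) had discordant pairs alone, against 1.26% of 37661 calls at 150 to under 250 bp and 1.74% of 143047 at 330 to under 420 bp. The share of such calls was 10.1% ± 2.52 in control (SD, n = 4). It was 7.36% ± 2.83 at 5 Gy x2 and 4.79% ± 2.16 at 5 Gy x4. The 5 Gy x2 libraries overlapped both other groups. Every 5 Gy x4 library (at most 7.67%) lay below every control library (at least 7.95%), a difference that was not tested. By each library's own call length, 127 of these 830 calls (15.3%) were at exactly 290 bp and the others were spread over other lengths. Conversely, 127 of the 213 member calls of exactly 290 bp (59.6%) had 0 split reads, against 5.19% of the 13537 member calls of other lengths.

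The same length stood out beyond the set. Over all intronic and intergenic entries, 882 of 974 calls of exactly 290 bp had 0 split reads, and 755 of those 882 belonged to entries listed at 330 bp or more. At 1 bp shorter it was 222 of 299 calls and at 295 bp 9 of 81. Among the listed lengths, 290 bp had 139 members, against 92 at 1 bp shorter and 69 at 1 bp longer. What made this length common among calls without a split read was not tested.

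**Figure D4:**
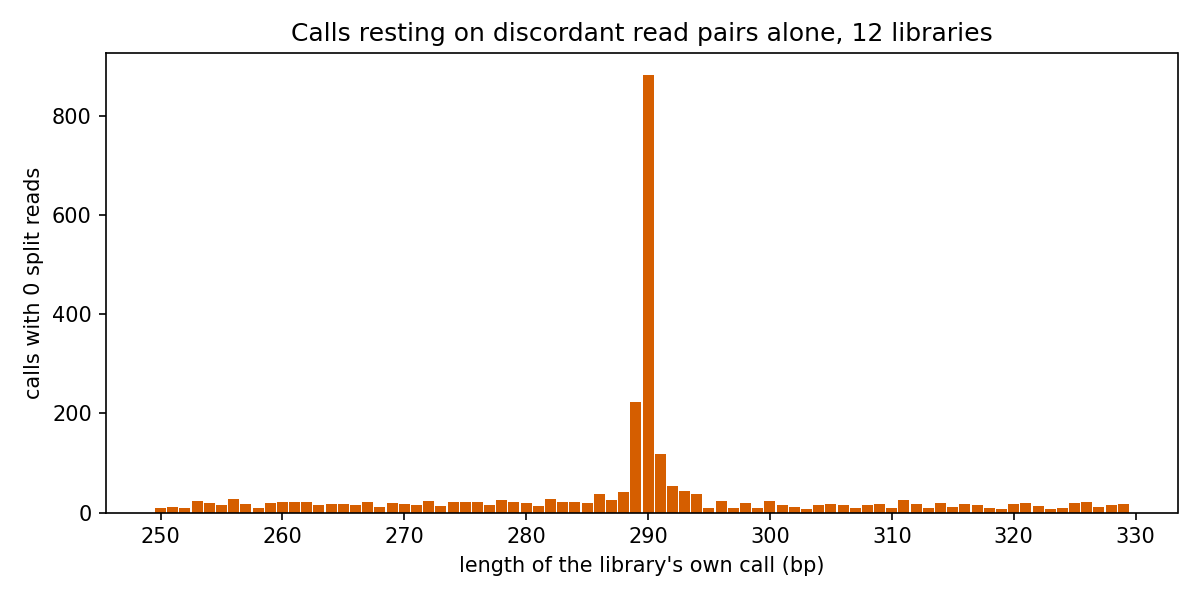
Number of calls with 0 split reads (vertical axis) by the length of the library's own call (horizontal axis, bp), over all intronic and intergenic entries and 12 libraries. The bar at 290 bp reaches 882 calls, next to 222 at 1 bp shorter.

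Few members were found more than once, and the repeats differed in support from the rest. Of the 12415 members, 11528 (92.9%) were found in 1 library, 887 in at least 2, 97 in at least 4 and 23 in at least 7, with 2 in 10 and 0 in 11 or 12. Every eccDNA found in 1 library only had at least 1 split read there (0 of 219422 without), so calls resting on discordant pairs alone entered the list only on entries shared between libraries. Counting only libraries with a split read, 342 members (2.75%) were in at least 2, 37 in at least 4 and 8 in at least 7. For 545 of the 887 repeated members, split reads came from 1 library alone. Discordant pairs alone supported 35.6% of the calls of members in 2 or 3 libraries and 47.0% of the calls of members in at least 7.

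The listed length of a repeated member spanned the calls of several libraries. No entry was shorter than one of its calls, 448 of the 887 were longer than every call, and 567 (63.9%) included a call under 250 bp. In 43 of them all calls had the listed length. As listed, a repeated entry therefore spanned calls that in most cases did not share both ends. The listed length exceeded the longest call by a median of 1 bp. For 545 of the 887, split reads came from 1 library alone, so whether the libraries held the same circle could not be told there.

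Because merging sets the listed length, and the listed length chose the members, the share of repeated circles is given without a test. Of the members present in a library, 19.98% ± 9.58 were found in at least 2 libraries (SD, n = 12), against 7.99% ± 5.95 at 150 to under 250 bp and 10.5% ± 12.3 at 330 to under 420 bp. In control replicate 4 the share was lower than in the longer class (a difference of -9.77 percentage points). When a split read was required in each library, the shares were 8.79% for the members, 5.17% for the shorter class and 4.75% for the longer class. Per library, the repeated share was 29.2%, 28.2%, 29.1% and 37.8% in control replicates 1 to 4, 17.6%, 10.9%, 15.6% and 25% in 5 Gy x2, and 11.2%, 8.58%, 9.63% and 16.9% in 5 Gy x4. Every control library lay above every irradiated one. In each group the highest share was in replicate 4, the library with the fewest members, and whether the number of members bears on the share was not tested. Of the 97 members in at least 4 libraries, 90 were found in control, 88 in 5 Gy x2, 82 in 5 Gy x4 and 66 in all 3 groups. Most were in the shorter part of the range, with 75.3% under 310 bp against 46.2% of all members.

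The most widespread members had a call in 10 libraries. The intergenic entry chr17:72941877-72942177 (rn6, 301 bp, label hconf) had 21, 0, 85 and 41 supporting reads in control replicates 1 to 4, 29, 19, 65 and 5 in 5 Gy x2, and 16, 0, 17 and 18 in 5 Gy x4. It was absent from 1 control and 1 5 Gy x4 library, and 229 of its 316 reads were split reads. The entry chr9:16972518-16972798 (281 bp) in an intron of Zfp318, which encodes a zinc finger protein (ENSRNOG00000018741), had 20, 31, 67 and 68 reads in control, 40, 10, 0 and 10 in 5 Gy x2, and 5, 15, 16 and 0 in 5 Gy x4. Only 10 of its 282 reads were split reads, and its calls ran from 136 to 280 bp. These entries show both kinds of support found among repeated members.

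Of the 10 members found in most libraries, 6 had under 10% split reads. Among the intronic ones, chr1:205874223-205874515 in Fank1 (ENSRNOG00000018327, 9 libraries) had 6 split reads of 137. The entry chr4:61474514-61474842 in Lrguk (ENSRNOG00000008775, 9 libraries), at the upper length limit, had 1 of 132. The entry chr6:3689591-3689912 in Tmem178a (ENSRNOG00000007907, 8 libraries) had 7 of 346. By contrast, chr14:79717813-79718066 in Sorcs2, which encodes a sortilin-family receptor (ENSRNOG00000007033, 8 libraries), had 193 of 278. The intergenic entry chr4:180215747-180216023 (9 libraries) had 69 of 95. The remaining intergenic entries, chr6:6152386-6152669, chr2:29351122-29351420 and chr6:107963982-107964257, each in 9 libraries, had 9 of 724, 8 of 280 and 24 of 157.

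The member with most supporting reads was the intergenic entry chr4:65342517-65342800 (284 bp). It had 0, 0, 148 and 232 reads in control replicates 1 to 4, 63, 0, 83 and 0 in 5 Gy x2, and 134, 211, 0 and 76 in 5 Gy x4, a total of 947 with 188 split reads. It was present in 7 libraries spread over all groups and absent from libraries of each. High support could also rest on 1 library. The intergenic entry chr2:121258026-121258352 had 303 reads, of which 264 (87.1%) were in control replicate 4.

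The intronic members were spread thinly over many genes. They named 3226 host genes, of which 2344 had 1 member and 57 had at least 5, and 180 intronic members had no gene symbol. Mycbp2, which encodes a very large ubiquitin ligase (ENSRNOG00000010479), had the most, with 30 members annotated to it between chr15:88189915 and 93591632. Its members made 6 calls in control libraries, 10 at 5 Gy x2 and 15 at 5 Gy x4. Their stretch was wider than that of any other gene ranked here, and whether all of it belongs to Mycbp2 was not checked. The cell polarity gene Pard3 (ENSRNOG00000032437) had 10 members, with 2, 4 and 4 calls. Nav2, a neuron navigator gene (ENSRNOG00000014530), and Pde4d, which encodes a cAMP phosphodiesterase (ENSRNOG00000042536), had 9 each, and Apoo, Pard3b and Rbms3 had 8 each. Apoo, a gene for a mitochondrial cristae protein, made 4, 1 and 5 calls. Ak5, an adenylate kinase gene, Astn2, a neuronal adhesion gene, and Camta1, which encodes a transcription activator, had 7 each. Astn2 made 0 calls in control libraries, 1 at 5 Gy x2 and 7 at 5 Gy x4, and Camta1 made 3, 4 and 1. These numbers are too small for a test, are not scaled by gene length, and come beside 2873, 4325 and 6552 member calls in the 3 groups.

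Over all genes, 3226 of the 15400 gene symbols with a listed circle (20.9%) had an intronic member, and the lists for skin structure and DNA repair are given beside that share, not scaled by gene length. Of 29 extracellular matrix genes, 26 had a listed circle and 9 had an intronic member, 11 members in all, among them Col24a1, a collagen gene, and Loxl2, which encodes a collagen cross-linking enzyme, with 2 each. Of 28 epidermal keratinocyte genes, 25 had a listed circle and 6 had one, 13 members in all, led by Itga6 with 4 and Grhl2 with 3. Itga6 encodes an integrin subunit of the attachment of basal keratinocytes to the basement membrane, and Grhl2 an epithelial transcription factor. Of 30 DNA damage and repair genes, 26 had a listed circle and 5 had one, 9 members in all, with 4 in Xrcc4 and 2 in Xrcc5, which both act in the joining of broken DNA ends.

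The list of 30 long neuronal genes, included because long introns offer more room for circles, had a listed circle in 21 genes, members in 16 and 53 members in all. Astn2 and Cdh13, which encodes a cadherin, had 7 each. The list's members made 0.348% of the member calls in control, 0.486% at 5 Gy x2 and 0.488% at 5 Gy x4. The keratinocyte list made 0.0348%, 0.0925% and 0.122%, on 1, 4 and 8 calls. The extracellular matrix list made 2, 3 and 6 calls and the repair list 2, 1 and 6.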

How the data were processed

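The authors deposited 1 table per library and an annotation table. Per the file headers, the library values are counts, whole-number supporting reads per circle with no normalization. The deposited annotation also lists each library's split reads, discordant pairs, call positions and mean depth, of which the last was used for the mitochondrial genome alone, and 5 columns of per-library values were not used. The submitters' processing notes name BWA, Picard, bedtools and rn6, and the circle caller is not given in the sources used here. Starts are counted from 1 here. In 3 members the counts differed from the listed total, and 4 entries with unequal lists, 0 of them members, were left out of the call lists.

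Members and gene lists were chosen with earlier results of these data known. Values were computed in Python 3.11.15 (pandas 2.3.3, numpy 2.4.6, scipy 1.17.1). Groups were compared by two-sided exact permutation tests (70 splits of 8 libraries), and p-values were adjusted by Benjamini-Hochberg over 21 tests (7 measures, 3 pairs of groups). The 3 tests of length spacing, and the comparisons of spacing and of repeated circles with other length classes, are given as values only because listed lengths set the limits. Members per 10 Mb window were fitted with edgeR 4.0.16 in R 4.3.3 (TMM, filterByExpr, quasi-likelihood, 1 fit of 12 libraries) and, as an alternative, DESeq2 1.42.0. The permutation tests were checked on simulated data, as was the unfiltered edgeR window fit for 5 Gy x4 against control. The filtered fit and DESeq2 were not checked in this way. Named circles were the 10 in most libraries and the 5 with most reads, named genes the 10 with most intronic members and up to 2 per list. Named windows were those past the threshold whose shares did not overlap between groups. The alternatives covered the length limits, the minimum of reads, the scale of the number, the window filter and normalization, leaving out each library and pairing by replicate number. GC content and sequences were not analysed here.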

Additional observations from a re-analysis of the deposited data

Results flagged for a closer look

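In control replicate 4, 37.8% of the members present were also found in another library, against 28.2% to 29.2% in the other control libraries, which set it apart from its group. It was the 1 library so set apart among 36 groups of 4 values checked, where chance alone marks about 1 group in 20.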

How the results depend on the processing

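Of 559 recomputed values, 509 kept their direction and their side of the threshold, and none of the tests of a single value between groups passed an adjusted p of 0.05 under any setting tried. The fold in number turned below 1 per 10000 supporting reads (0.962 in 5 Gy x2, 0.896 in 5 Gy x4, 0.931 between the doses), by mitochondrial depth (0.289 and 0.356) and, in 5 Gy x2, at 250 to under 310 bp (0.974). Differences that turned sign were those in hconf share with at least 2 reads (0.0565, 5 Gy x2) and in circles found in 1 library (4.39, 5.03 and, between the doses, 0.639), those in intronic share in circles found in 1 library (0.353 and 0.290) and, between the doses, at 260 to under 320 bp (0.0355), and those in length spacing at 10 bp (-0.144 and -0.0183) and, in 5 Gy x2, at the other shorter spacing tried (-0.155). Their cause was not tested. The count of called windows went from 0 to 2 (5 Gy x2) and 3 (5 Gy x4) without the filter, where 290 windows were tested, and to 2 and 2 with windows of 20 Mb. Leaving out 1 library, filtered calls in 5 Gy x2 were 0 to 1, and unfiltered calls 0 to 3 in 5 Gy x2, 0 to 4 in 5 Gy x4 and 0 to 1 between the doses. Leaving out 1 library turned the sign of the intronic share (-0.726 to 0.128 in 5 Gy x2, -0.815 to 0.0635 between the doses), of mean log2 reads (-0.617 to 0.366, -0.767 to 0.0537 and -0.659 to 0.293) and of the hconf share (-3.09 to 5.95, -3.35 to 2.28 and -6.82 to 2.36). The fold in number stayed at 1.28 to 1.82, 1.93 to 2.65 and 1.25 to 1.78. Same-numbered libraries had correlations of -0.104 to 0.0507, so the numbers were not taken to pair the libraries. With the replicate block, unfiltered window calls were 2, 3 and 0, and the smallest exact p was 0.125. The members were also compared with neighbouring classes in intronic, gene-dense, chromosome 12 and hconf shares and in log2 reads. Those comparisons kept their direction and adjusted exact p under 0.05 in every setting tried for them. These settings were at least 2 supporting reads, circles found in 1 library, calls with at least 1 split read and leaving out each library. The length limits were not varied for these comparisons. The settings of 250 to under 310 bp, circles found in 1 library, split reads and unfiltered window fits were chosen after seeing the data. Settings for GC content were not run, since no genome was given. The number of libraries per group, and the unknown total depth, limit what could be detected.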
